A study of Homo sapiens with 9 samples.

Results

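Fatty acid oxidation and ketone body metabolism were followed as a module of 30 genes, found by symbol among the 50868 genes of the deposited count table; 29 of the 30 had enough counts to be tested and 1, ACADL, did not. Their mRNA was sequenced in subcutaneous flank tumours that the liver cancer line Huh-7, labelled WT, had formed in NOD/SCID mice, which lack functional T and B cells. Tumours of about 100 mm3 were injected every 4 days over 8 days with one of 3 adenoviruses: Ad-GFP, the control virus for a fluorescent protein; Ad-HNF4A, for the liver transcription factor HNF4A; or Ad-K458R, for HNF4A with a lysine-to-arginine change. Each group had 3 libraries. Every group therefore carried virus, and the host mouse could contribute its own cells to the tumour. The labels do not say that the 3 libraries of a group came from different mice. A p-value therefore reflects only how far libraries of the same group differ, a spread that may be technical. The main test estimates that spread from all 3 groups together, so leaving out a library of 1 group can change the calls of another. The sources used here give neither the age of the mice nor the promoter that drives the transgene. In bulk tumour RNA, fewer cells of a type and less RNA per cell cannot be told apart.

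Fatty acids enter oxidation as acyl-CoA, made by the acyl-CoA synthetases. Long-chain acyl groups cross into mitochondria as carnitine esters and are shortened in a repeating cycle of dehydrogenation, hydration, a further dehydrogenation and thiolysis, while very long and branched chains are first shortened in peroxisomes. In the liver the acetyl-CoA that results can be turned into ketone bodies. HNF4A is a nuclear receptor that maintains hepatocyte gene expression and binds DNA as a homodimer.

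The transferred gene was present as labelled. HNF4A was at 154, 169 and 182 CPM (counts relative to the library total, scaled for composition) in the Ad-GFP libraries, at 3690, 3500 and 5380 in Ad-HNF4A and at 5400, 4990 and 5480 in Ad-K458R. Its log2 fold change against Ad-GFP was 4.64 ± 0.18 (SE) for Ad-HNF4A and 4.97 ± 0.18 for Ad-K458R, with adjusted p of 7.4e-06 and 4.1e-06 (edgeR quasi-likelihood test, Benjamini-Hochberg adjustment over all 16697 genes tested, the test used throughout with a threshold of 0.05). The HNF4A libraries of the 2 treated groups overlapped, and the difference between them was 0.34 ± 0.15 (adjusted p = 0.59). Without Ad-HNF4A replicate 3, the highest of its group, that difference was 0.56 (adjusted p = 0.043). The counts do not separate the tumour's own HNF4A mRNA from that of the virus, nor the changed from the unchanged form.

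Total counts were 18529618 to 23171796 per library in Ad-GFP, 15933702 to 19748918 in Ad-HNF4A and 17715527 to 22136627 in Ad-K458R. The 10 hepatocyte markers summed to 30400 to 31400, 30600 to 33200 and 28300 to 28800 CPM in these groups, with AFP and APOB the most abundant. APOA2 alone was called, higher in Ad-HNF4A (edgeR adjusted p = 0.044). Against Ad-GFP, 8 of the 10 had a log2 fold change above 0 in Ad-HNF4A (51.1% of all genes tested) and 2 in Ad-K458R (49.1%). From Ad-HNF4A to Ad-K458R all 10 were below 0, where 49.2% of all genes were above 0. In that comparison 5 of the 10 lay wholly below (6.84% of all genes), and none was called. On the second principal component, Ad-HNF4A replicate 1 lay far from the rest (46.1, against -11.2 to 4.1 for the other libraries), which held 12.7% of the variance. Markers of other cell types moved with treatment: 11 macrophage markers summed to 17.3 to 21.2 CPM in Ad-GFP, 31.8 to 39.3 in Ad-HNF4A and 40.7 to 43.9 in Ad-K458R. CD68 made the largest part, with means of 12.4, 17.9 and 24.8 CPM. Of their 8 tested genes, 4 and 5 were called higher in Ad-HNF4A and Ad-K458R, against 3.16% and 3.32% of all genes. CD14, AIF1 and PTPRC were called in neither. TYROBP and CD163, not tested, were at 0 CPM in Ad-GFP, CD163 also in replicate 1 of both treated groups. MRC1, not tested either, went the other way, with means of 0.22, 0.186 and 0.123 CPM. The 6 adipocyte markers summed to 39.9 to 50.3, 72.7 to 96.5 and 80.6 to 88.5 CPM, through CIDEC and PLIN4, while ADIPOQ, FABP4 and LEP were at 0 CPM in every group. Endothelial markers (7 genes, nearly all PECAM1) summed to 38.8 to 42.1, 48.1 to 58.8 and 41.3 to 48 CPM. VWF was called higher in both treated groups, with means of 0.369, 1.4 and 2.23 CPM, and PECAM1 in neither. KDR was at 0 CPM in every library, and CDH5, TEK, EMCN and ERG were too low to be tested. Fibroblast markers (8 genes) summed to 104 to 110, 114 to 126 and 112 to 126 CPM. COL6A1 alone of these was called, higher in both treated groups. The median log2 fold changes of the 6 tested fibroblast markers were 0.06 and 0.01, with PDGFRB and LUM below 0 in both. Muscle markers (7 genes) summed to at most 1.01 CPM. Protein-coding mitochondrial mRNA took 6.05 to 6.54% of counts in Ad-GFP, 5.26 to 5.45% in Ad-HNF4A and 5.18 to 5.78% in Ad-K458R. The part of these shifts in the results below was not tested.

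Upstream sequence is shown for ACSL5, the member with the largest change, and for BDH1, the only member searched that had a match to a relaxed HNF4A site. Windows of 250 bases before a RefSeq transcript start (GRCh38.p14) were present for 24 of the 30 members, 35 windows in all. Some of them, among them those of CPT2, ACADM, ECHS1 and ACAA2, lie wholly in annotated exon. ACAA1, CRAT, EHHADH, ETFDH, DECR1 and DECR2 had no window and were not searched. Sequences run 5′ to 3′ on the gene's strand, in lower case, with motif matches in capitals. The ACSL5 windows lie on the plus strand of chromosome 10 at chr10:112375018-112375267 and chr10:112375955-112376204, inside the gene's annotated span, which begins with an earlier start. The first holds 33 bases of annotated exon and the second 7. The BDH1 window shown lies on the minus strand at chr3:197573344-197573593, upstream of the gene; its other window, chr3:197555969-197556218, lies inside the gene, holds 80 bases of UTR and no motif match, and is not printed.
ACSL5, first window: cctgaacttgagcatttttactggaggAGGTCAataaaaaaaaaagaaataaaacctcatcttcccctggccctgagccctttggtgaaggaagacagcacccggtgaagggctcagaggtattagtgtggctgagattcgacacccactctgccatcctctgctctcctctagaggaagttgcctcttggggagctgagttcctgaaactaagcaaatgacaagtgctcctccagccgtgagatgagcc
ACSL5, second window: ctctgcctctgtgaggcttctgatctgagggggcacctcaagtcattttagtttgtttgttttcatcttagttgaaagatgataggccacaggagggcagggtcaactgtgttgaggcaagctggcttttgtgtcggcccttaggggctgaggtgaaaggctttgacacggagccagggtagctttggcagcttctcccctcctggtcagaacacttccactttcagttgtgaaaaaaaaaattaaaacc
BDH1: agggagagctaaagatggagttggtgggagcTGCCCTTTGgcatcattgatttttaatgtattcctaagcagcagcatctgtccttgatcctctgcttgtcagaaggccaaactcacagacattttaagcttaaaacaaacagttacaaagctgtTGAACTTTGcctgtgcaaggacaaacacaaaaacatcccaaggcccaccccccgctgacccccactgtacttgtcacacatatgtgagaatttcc
Both strands were searched for 5 motifs. The HNF4A-specific CAAAGTCCA was in none of the 35 member windows and in 0.325% of all 35114 windows, and the direct repeat, AGGTCA, any 1 base and AGGTCA again, was in none against 0.0171%. The relaxed core CAAAGNNCA, which contains every CAAAGTCCA, was in 1 member window against 4.44% of all: BDH1 held CAAAGGGCA, ending 211 bases before the start, and CAAAGTTCA, ending 87 bases before it, both on the opposite strand and so printed in capitals as their reverse complements. TATAAA was in 1 member window, that of ACADVL, against 10.7% of all. The half-site AGGTCA, which is part of the direct repeat and was added to the search after the ACSL5 window had been seen, was in 1 member window, the first of ACSL5, against 12.1%. These matches describe letters in a window and are not evidence of binding, which was not tested.

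Levels of different genes were compared per kilobase of the principal transcript, in Ad-GFP only. ETFB, a subunit of the electron transfer flavoprotein that takes electrons from the acyl-CoA dehydrogenases, was highest at 165 ± 9.75 CPM per kilobase (SD, n = 3), followed by its partner ETFA at 96.9 and by the enoyl-CoA hydratase ECHS1 at 82.6. The peroxisomal HSD17B4 (69.9) and ACAA1 (69.3) and the mitochondrial HADHA (68.9) came next. The libraries of HSD17B4, ACAA1 and HADHA overlapped in this order, as did 14 of the 29 neighbouring pairs in all. The entry genes were spread over this order: ACSL4 was at 49.8 and ACSL3 at 45.3 CPM per kilobase, CRAT at 21.4, CPT2 at 13.5 and ACSL1 at 12.9, ACSL5 at 5.32, CPT1A at 3.21 and CROT at 3.11. BDH1 (0.54) and ACADL (0.156), the long-chain acyl-CoA dehydrogenase, were lowest. The order depends on the length used, which was chosen after the lengths were seen: by the deposited FPKM, ECHS1 ranked 1 (81.6 FPKM), HADHA 2 and ETFB 6 (19.8 FPKM), ACAA1 moved from rank 5 to 14 and ACADVL from 7 to 15, while ACSL5, CPT1A, CROT, BDH1 and ACADL kept ranks 26 to 30.

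**Figure D1:**
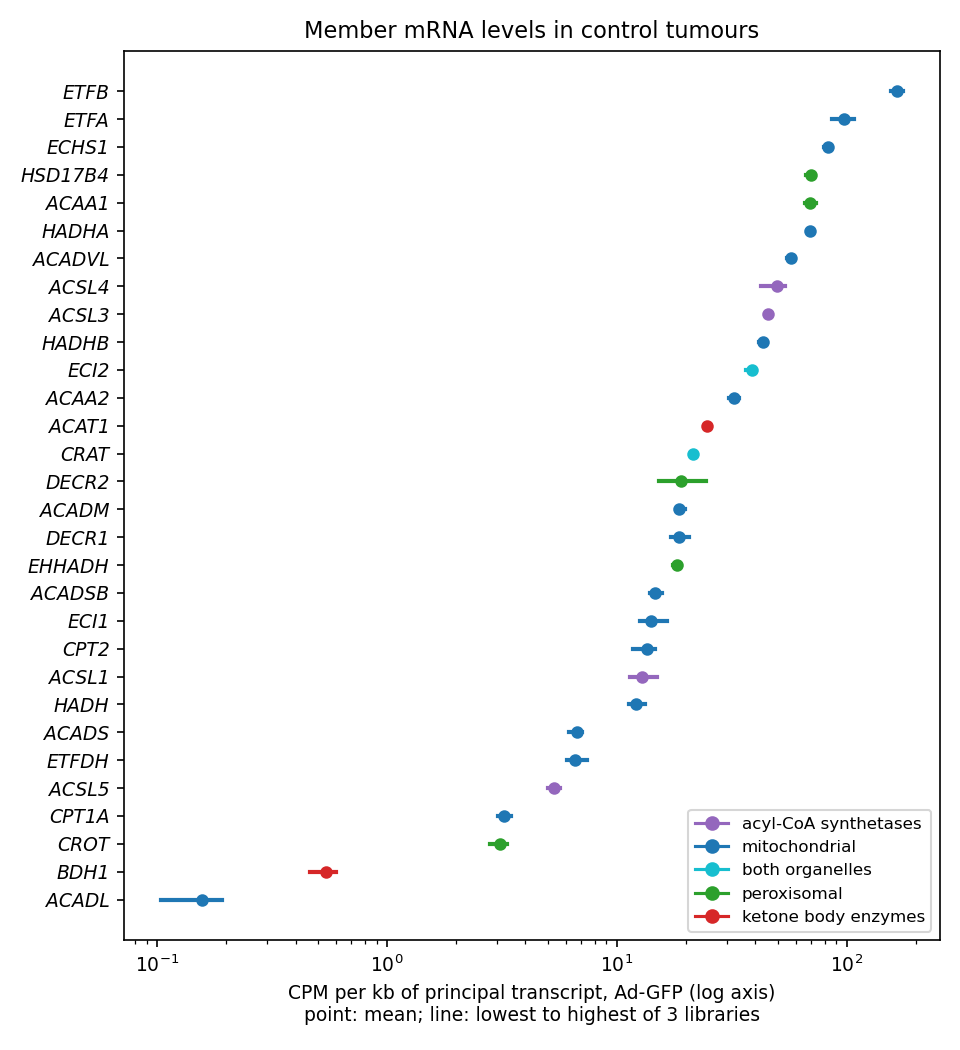
Mean level of each of the 30 members in the Ad-GFP tumours, in CPM per kilobase of principal transcript on a log axis; points are means, lines run from the lowest to the highest of 3 libraries and colours give the compartment. On this length ETFB is highest at 165 and ACADL lowest at 0.156; by deposited FPKM, ETFB ranks 6 and ACADL is again lowest.

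Compared with Ad-GFP, 3 of the 29 tested members rose in Ad-HNF4A (ACSL5, ACAA1 and CRAT) and none fell. Of all genes tested, 3.16% were called higher and 0.305% lower in that comparison. In Ad-K458R, 4 members rose (the same 3 and CPT1A) and none fell, where 3.32% of all genes were called higher and 0.234% lower. Both comparisons use the same 3 control libraries. Without Ad-HNF4A replicate 1, the members called were 2 in Ad-HNF4A (ACSL5 and ACAA1) and 4 in Ad-K458R (ACSL5, CRAT, ACAA1 and ACAT1). Of all genes, 436 and 600 were then called, against 578 and 594 with all 9 libraries.

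Most other members lay slightly above control without passing the test. In Ad-HNF4A the log2 fold change was above 0 for 26 of 29 members, with a median of 0.19, against 51.1% and a median of 0.01 over all genes tested; 11 members had all 3 treated libraries above all 3 controls (12.2% of all genes) and 0 had all below (9.2%). In Ad-K458R it was above 0 for 22 of 29 members, with a median of 0.12, against 49.1% and a median of 0 over all genes; 12 members lay wholly above control (13.1% of all genes) and 1, ACSL3, wholly below (10.6%). With 3 libraries against 3, an exact permutation test of a single gene cannot go below p = 0.1. The 30 members together took 0.244 to 0.256% of counts in Ad-GFP, 0.279 to 0.283% in Ad-HNF4A and 0.27 to 0.278% in Ad-K458R.

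**Figure D2:**
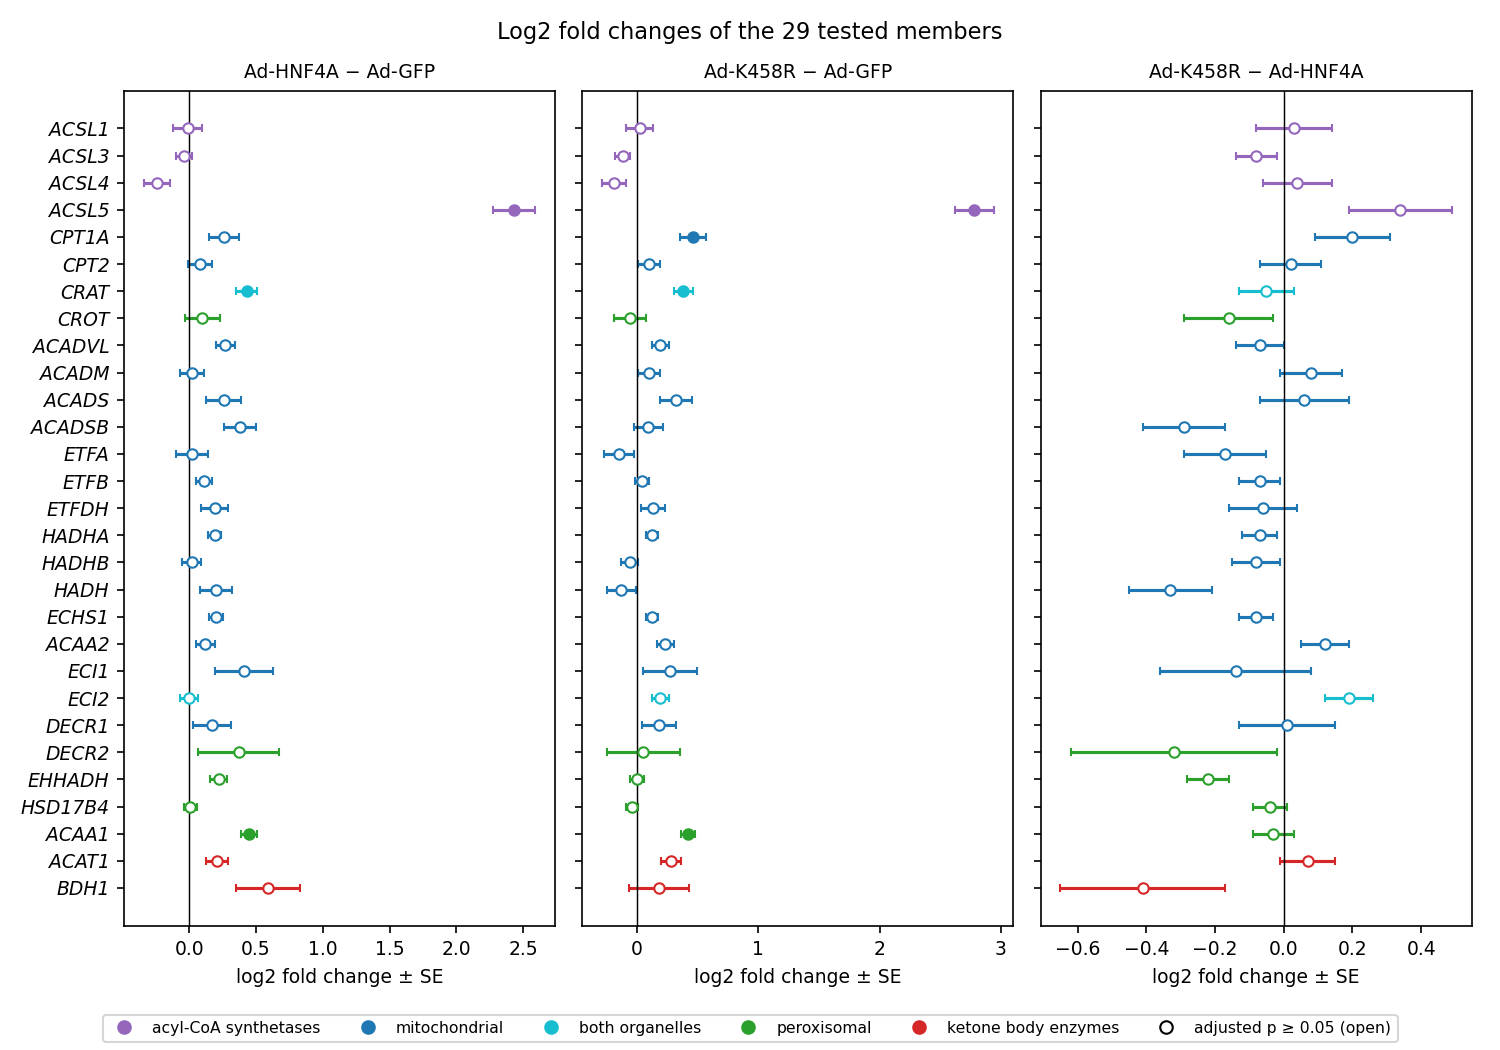
Log2 fold change ± SE of the 29 tested members in the 3 comparisons, ordered by role; filled points have an adjusted p under 0.05 in the edgeR test and open points do not, and each panel has its own horizontal scale. ACSL5 stands at 2.43 and 2.78 against Ad-GFP, and the third panel has no filled point.

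Of the 4 long-chain acyl-CoA synthetases among the members, ACSL5 alone rose. It was at 17, 19 and 18 CPM in Ad-GFP, at 80.6, 85.1 and 125 in Ad-HNF4A and at 130, 115 and 124 in Ad-K458R. All 6 treated libraries lay above all controls, with Ad-HNF4A replicate 3 at the level of the Ad-K458R libraries. The log2 fold change was 2.43 ± 0.16 in Ad-HNF4A (5.4-fold, adjusted p = 5.2e-05) and 2.78 ± 0.16 in Ad-K458R (6.85-fold, adjusted p = 1.6e-05), and it was called in each of 20 alternative analyses of either comparison. ACSL5 (ENSG00000197142, chromosome 10, 112374018 to 112428380, build GRCh38 as the gene positions show) overlaps the antisense gene ZDHHC6 by 3953 bases, and reads of the pair cannot be told apart without strand. ZDHHC6, named here for that overlap, was at 50.6 ± 1.1, 51 ± 2.6 and 52.7 ± 2.84 CPM (SD, n = 3) in Ad-GFP, Ad-HNF4A and Ad-K458R.

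The other 3 synthetases did not pass the test. ACSL4, which prefers arachidonic acid, was at 265 ± 33.9, 225 ± 26 and 232 ± 9.23 CPM (SD, n = 3) in Ad-GFP, Ad-HNF4A and Ad-K458R, with log2 fold changes of -0.24 and -0.19 (adjusted p = 0.29 and 0.46). ACSL3, a lipid droplet and endoplasmic reticulum enzyme, was at 257 ± 8.22, 250 ± 19.1 and 236 ± 9 CPM. ACSL1, the main synthetase of normal liver, was at 50.8 ± 7.23, 50.4 ± 5.45 and 51.4 ± 0.197 CPM. As a share of the 4 mRNAs, counted in CPM per kilobase, ACSL5 made up 4.29, 4.75 and 5.09% in Ad-GFP, 18.7, 19.4 and 29.4% in Ad-HNF4A and 28.4, 25.8 and 27% in Ad-K458R. This share was computed after the rise of ACSL5 was known and is a description of it. Their sum was 104 to 118 CPM per kilobase in Ad-GFP, 126 to 130 in Ad-HNF4A and 132 to 136 in Ad-K458R. ACSL6, which is not a member and was left out of the share and the sum, was at 1.28, 1.43 and 1.4 CPM in the mean of these groups. It was not called.

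**Figure D3:**
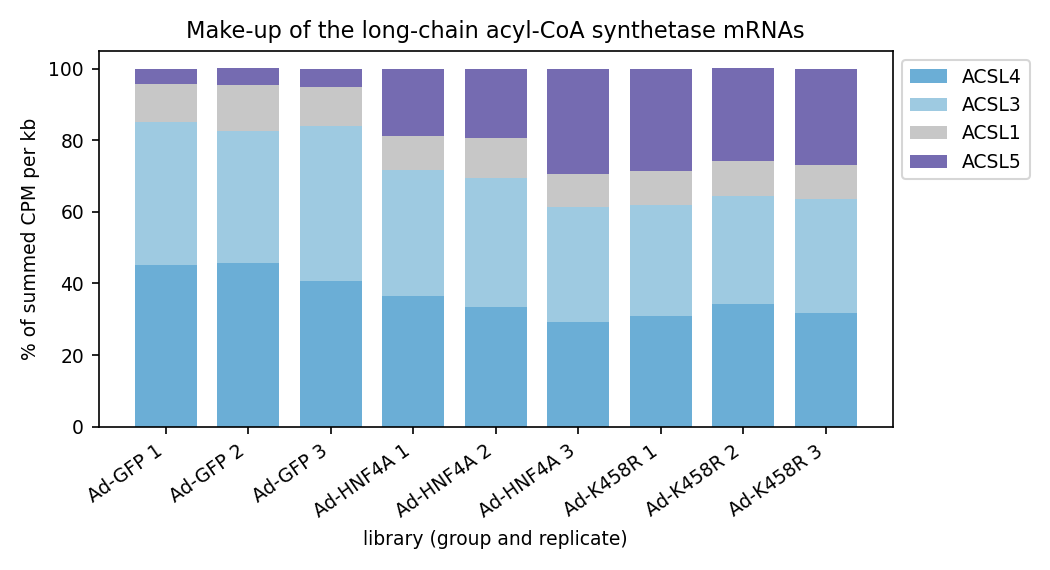
Share of each of the 4 long-chain acyl-CoA synthetase mRNAs among the members in their summed CPM per kilobase, in percent, in each of the 9 libraries. ACSL5 lies between 4.29 and 5.09% in the Ad-GFP libraries and between 18.7 and 29.4% in the others.

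The genes whose log2 CPM followed ACSL5 most closely over the 9 libraries were HRC and TLR2 (Pearson r = 0.999 each), CYP19A1 (0.998), STAG3 (0.997) and CYP8B1 (0.996). These correlations share the group difference and the libraries, and are given without a test. HRC and CYP8B1 had no counts in Ad-GFP and were at 0.77 and 1.69 CPM in Ad-HNF4A and 1.12 and 2.41 CPM in Ad-K458R. TLR2 was at 1.68, 8.88 and 11 CPM in the 3 groups.

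Among the carnitine acyltransferases, CRAT rose in both treated groups and CPT1A in Ad-K458R. CRAT, which exchanges short acyl groups between carnitine and CoA in mitochondria and peroxisomes, was at 59.5, 58.7 and 59.2 CPM in Ad-GFP, 80.7, 73.3 and 84.4 in Ad-HNF4A and 75.2, 85.8 and 69.7 in Ad-K458R. The treated libraries all lay above the controls, which spread little. The log2 fold changes were 0.43 ± 0.08 (adjusted p = 0.019) and 0.38 ± 0.08 (adjusted p = 0.033), with edgeR. Leaving out any 1 Ad-GFP library ended both calls, as did leaving out Ad-HNF4A replicate 1 or 3 in the first comparison and Ad-K458R replicate 1 or 2 in the second, with adjusted p up to 0.077 and 0.13. With the replicate number as a block, adjusted p was 0.056 and 0.086. CRAT (ENSG00000095321) lies on chromosome 9, 129094810 to 129111189, and overlaps the antisense gene PTPA by 240 bases.

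CPT1A, the rate-limiting enzyme that makes long-chain acylcarnitine at the outer mitochondrial membrane, was at 18.1, 15.9 and 16.4 CPM in Ad-GFP, 19.3, 21 and 19.9 in Ad-HNF4A and 26.2, 20.4 and 22.5 in Ad-K458R. Both treated groups lay above the controls and overlapped each other. The log2 fold change was 0.46 ± 0.11 in Ad-K458R (adjusted p = 0.045) and 0.26 ± 0.11 in Ad-HNF4A (adjusted p = 0.27), and the difference between the treated groups was 0.2 ± 0.11 (adjusted p = 0.65). The Ad-K458R call was lost in 12 of 20 alternatives, with adjusted p of 0.015 to 0.19 over all of them: with limma-voom, log2(FPKM + 1), the 6 libraries alone or the replicate block (adjusted p = 0.076), and without any 1 library other than Ad-K458R replicate 2. CPT1A (ENSG00000110090) lies on chromosome 11, 68754620 to 68844410.

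CPT2, which returns the acyl group to CoA inside the mitochondrion, was at 41.7 ± 4.77, 44.1 ± 1.46 and 44.7 ± 2.01 CPM (SD, n = 3) in Ad-GFP, Ad-HNF4A and Ad-K458R. CROT, the peroxisomal medium-chain acyltransferase, was at 9.86 ± 0.85, 10.5 ± 1.35 and 9.47 ± 0.905 CPM. Neither passed the test in any comparison.

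**Figure D4:**
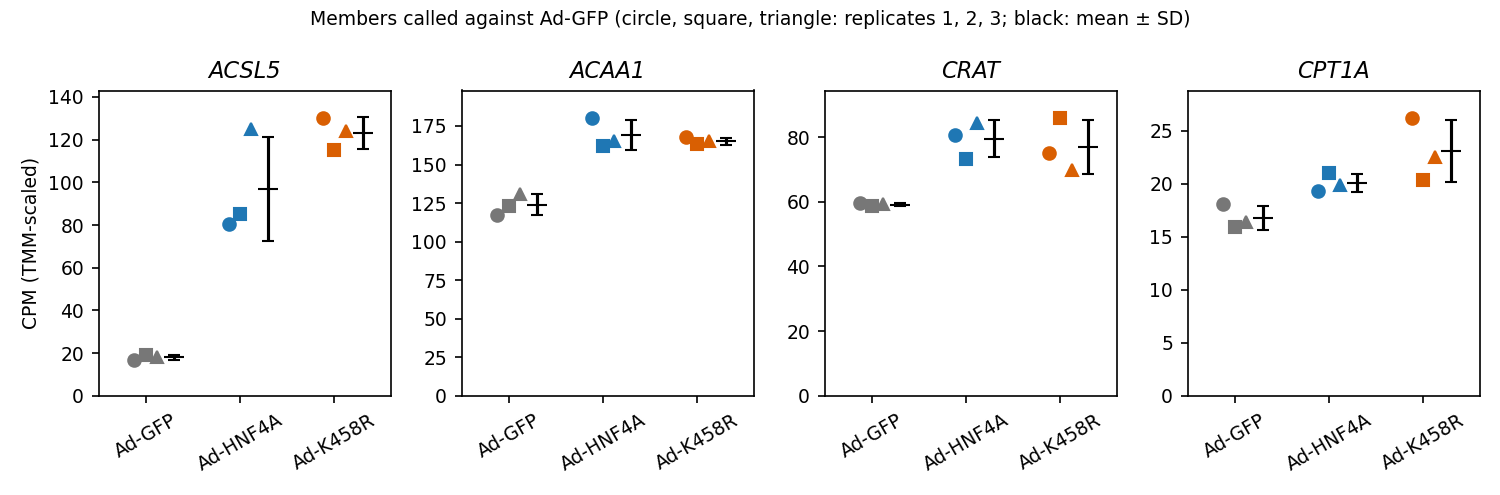
CPM of the 4 called members in each of the 9 libraries; circles, squares and triangles are replicates 1, 2 and 3, black bars show mean ± SD, and each axis starts at 0. ACSL5 goes from 18 to 96.9 and 123 CPM in the mean, while the other 3 differ from Ad-GFP by at most 1.37-fold.

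None of the 16 tested wholly mitochondrial members passed the test in Ad-HNF4A and 1, CPT1A, did in Ad-K458R. Of all genes tested, 3.16% and 3.32% were called higher, which is also the background for the smaller groups of members below. The median log2 fold changes of the mitochondrial members were 0.19 and 0.12, with 16 and 13 of them above 0. Over all genes the medians were 0.01 and 0, with 51.1% and 49.1% above 0. The summed level of the mitochondrial members, with ACADL included, was 640 to 663 CPM per kilobase in Ad-GFP, 713 to 731 in Ad-HNF4A and 675 to 696 in Ad-K458R.

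Of the acyl-CoA dehydrogenases, which open the cycle, ACADVL handles very long chains. ACADVL was at 128, 135 and 136 CPM in Ad-GFP, 168, 167 and 145 in Ad-HNF4A and 152, 150 and 154 in Ad-K458R. Its treated libraries lay above the controls, with log2 fold changes of 0.27 ± 0.07 (adjusted p = 0.053) and 0.19 ± 0.07 (adjusted p = 0.19), so it missed the threshold; it passed in Ad-HNF4A with DESeq2, upper-quartile scaling, library totals, no low-count filter and without Ad-HNF4A replicate 3 (adjusted p 0.013 to 0.048). ACADSB, the short/branched-chain enzyme, was at 81.5, 92.3 and 84.9 CPM in Ad-GFP, 99.1, 103 and 135 in Ad-HNF4A and 94.7, 101 and 80.6 in Ad-K458R. It did not pass in any comparison, with Ad-HNF4A replicate 3 the highest library. The short-chain ACADS (13, 15.5 and 16.2 CPM in the mean of the 3 groups) and the medium-chain ACADM (48.9, 49.6 and 52.4) did not pass either. ACADL was at 0.265 to 0.604 CPM over the 9 libraries, below the filter on low counts.

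The electron transfer genes differed little from control. ETFB was at 148 ± 8.77, 160 ± 10.2 and 153 ± 3.1 CPM (SD, n = 3) in Ad-GFP, Ad-HNF4A and Ad-K458R, and ETFA at 222 ± 24.9, 225 ± 27.4 and 200 ± 25.6. ETFDH, which passes the electrons on to ubiquinone, was at 21.6 ± 2.4, 24.7 ± 0.497 and 23.7 ± 1.72 CPM. Log2 fold changes of these 3 genes were between 0.02 and 0.19 in Ad-HNF4A and between -0.15 and 0.13 in Ad-K458R, none of them called.

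The remaining steps of the mitochondrial cycle gave no call. HADHA, the alpha subunit of the trifunctional protein, was at 204, 213 and 211 CPM in Ad-GFP, 234, 234 and 246 in Ad-HNF4A and 229, 226 and 225 in Ad-K458R. The 3 groups did not overlap, and the log2 fold changes against control were 0.19 ± 0.05 (adjusted p = 0.066) and 0.12 ± 0.05 (adjusted p = 0.3). HADHA passed in Ad-HNF4A with DESeq2, log2(FPKM + 0.1) and library totals (adjusted p 0.04 to 0.045). Its partner HADHB, transcribed from the opposite strand with an overlap of 1557 bases, was at 88.4 ± 3.54, 89.9 ± 4.09 and 85 ± 6.25 CPM (SD, n = 3).

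ECHS1 was at 129, 135 and 137 CPM in Ad-GFP, 156, 149 and 155 in Ad-HNF4A and 147, 139 and 149 in Ad-K458R, again above control in every treated library. Its log2 fold changes were 0.2 ± 0.05 (adjusted p = 0.079) and 0.12 ± 0.05 (adjusted p = 0.36). ACAA2, the thiolase that ends the mitochondrial cycle, was at 114, 107 and 103 CPM in Ad-GFP, 113, 116 and 121 in Ad-HNF4A and 136, 117 and 127 in Ad-K458R. The ACAA2 control libraries overlapped Ad-HNF4A but not Ad-K458R (log2 fold changes 0.12 and 0.23, adjusted p = 0.45 and 0.13). HADH, the medium- and short-chain hydroxyacyl-CoA dehydrogenase, was at 23.2 ± 1.82, 26.7 ± 4.02 and 21.3 ± 1.93 CPM (SD, n = 3).

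Of the auxiliary enzymes for unsaturated chains, DECR2 and ECI1 varied widely between libraries of 1 group. DECR2, the peroxisomal 2,4-dienoyl-CoA reductase, was at 28.1, 24.6 and 39.5 CPM in Ad-GFP, 54.6, 30.1 and 34.6 in Ad-HNF4A and 28.9, 41.4 and 24.8 in Ad-K458R. These groups overlapped, and the SE of its log2 fold change was 0.3; DECR2 also shares 8542 bases with NME4 on the same strand, so its counts are uncertain. ECI1, a mitochondrial enoyl-CoA isomerase, was at 19.3, 20.4 and 25.4 CPM, then 34.2, 24.7 and 27.7, then 21.5, 35.6 and 21.2 in the same order of libraries. The isomerase ECI2, found in both organelles, was at 59.7 ± 2.98, 59.9 ± 3.93 and 68.2 ± 2.2 CPM (SD, n = 3), and the mitochondrial DECR1 at 22.5 ± 2.15, 25.2 ± 3.94 and 25.4 ± 3.34. None of the 4 passed the test. DECR1 overlaps the antisense gene NBN by 1824 bases and, among the dehydrogenase genes, ACADM overlaps RABGGTB on its own strand by 1379 bases and ETFDH the antisense PPID by 490, so these counts are uncertain to that extent.

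Of the 5 members of the peroxisomal list, ACAA1 rose in both treated groups and the other 4 passed in neither. ACAA1, the thiolase that ends the peroxisomal cycle, was at 117, 123 and 131 CPM in Ad-GFP, 180, 162 and 165 in Ad-HNF4A and 168, 163 and 165 in Ad-K458R. Treated and control libraries did not overlap, while the treated groups did. The log2 fold changes were 0.45 ± 0.06 (1.37-fold, adjusted p = 0.0021) and 0.42 ± 0.06 (1.34-fold, adjusted p = 0.0029), called in all 20 alternatives of each comparison. ACAA1 (ENSG00000060971) lies on chromosome 3, 38103129 to 38137242, and the antisense gene DLEC1, which shares 20897 bases with it, averaged 0.213 CPM.

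EHHADH, the peroxisomal bifunctional enzyme that handles straight chains, was at 67.8, 69.7 and 72.9 CPM in Ad-GFP, 78.5, 83 and 83.3 in Ad-HNF4A and 71.6, 68.8 and 70.3 in Ad-K458R. Only its Ad-HNF4A libraries stood above the controls (log2 fold change 0.22 ± 0.06, adjusted p = 0.083), and Ad-K458R was 0 ± 0.06 from control (adjusted p = 0.99). HSD17B4, the other bifunctional enzyme, was at 188 ± 8.69, 188 ± 2.49 and 183 ± 3.17 CPM (SD, n = 3). The peroxisomal members summed to 174 to 186 CPM per kilobase in Ad-GFP, 204 to 227 in Ad-HNF4A and 196 to 206 in Ad-K458R.

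Neither ketone body member passed the test. ACAT1, the mitochondrial acetoacetyl-CoA thiolase, was at 43.5, 43.7 and 43 CPM in Ad-GFP, 45.3, 50.1 and 54.5 in Ad-HNF4A and 54.4, 52.1 and 51 in Ad-K458R. All treated libraries lay above the closely spaced controls, with log2 fold changes of 0.21 ± 0.08 (adjusted p = 0.21) and 0.28 ± 0.08 (adjusted p = 0.097); ACAT1 passed in Ad-K458R from the 6 libraries alone (adjusted p = 0.043) and without Ad-HNF4A replicate 1 (adjusted p = 0.049). BDH1, which interconverts acetoacetate and hydroxybutyrate and whose window is printed above, was at 1.99, 2.12 and 1.64 CPM in Ad-GFP, 2.94, 2.67 and 3.02 in Ad-HNF4A and 1.43, 2.75 and 2.28 in Ad-K458R. Ad-HNF4A lay above control (log2 fold change 0.59 ± 0.24, adjusted p = 0.26) and Ad-K458R overlapped it.

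**Figure D5:**
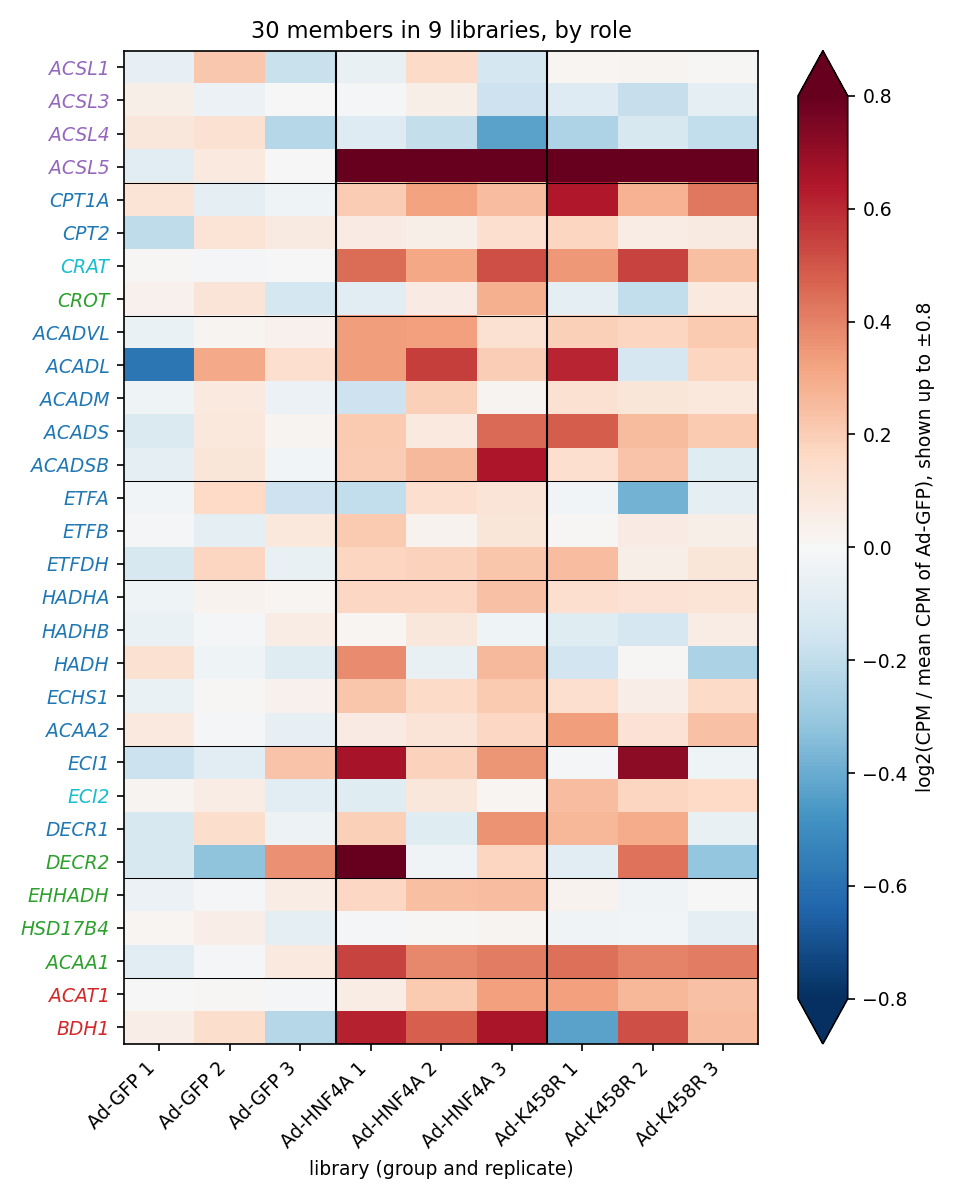
Log2 ratio of each member's CPM to its Ad-GFP mean in the 9 libraries, with members in rows by role, shown up to 0.8 in either direction. ACSL5 exceeds the scale in all 6 treated libraries, and ACAA1 and CRAT are above 0 in all of them.

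No member was called between Ad-K458R and Ad-HNF4A by edgeR, DESeq2 or limma-voom. In that edgeR comparison 0.00599% of all genes were called higher and 0.00599% lower. At an unadjusted p under 0.05 there were 5 of 29 members: ACSL5, ACADSB, HADH, ECI2 and EHHADH. Of all 16697 genes tested, 1460 were under that value. ACSL5 was 0.34 ± 0.15 higher in Ad-K458R on the log2 scale (95% interval 0.01 to 0.68, adjusted p = 0.55), and without Ad-HNF4A replicate 3 it was 0.57 higher (adjusted p = 0.048), as HNF4A itself was in that setting. EHHADH was at -0.22 ± 0.06 (95% interval -0.35 to -0.08, adjusted p = 0.39). The intervals were -0.17 to 0.1 for ACAA1, -0.23 to 0.14 for CRAT and -0.04 to 0.44 for CPT1A. Over the 29 members the median was -0.06, against 0 over all genes, with 11 above 0 (49.2% of all genes). ECI2 lay wholly above Ad-HNF4A (7.5% of all genes), and HADHA, ECHS1, EHHADH and HSD17B4 wholly below (6.84%).

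A further 72 genes of the same pathway, of which 67 were tested, gave 7 higher and 0 lower in Ad-HNF4A, 8 higher and 0 lower in Ad-K458R, and 0 either way between the treated groups; of all genes tested, 3.16% and 3.32% were called higher in the first and second comparison, which is also the background for the lists that follow. Among 23 tested mitochondrial genes 3 rose in each treated group. ACSM2A and ACSM2B, medium-chain acyl-CoA synthetases, went from 4.98 ± 1.1 and 5.96 ± 0.664 CPM (SD, n = 3) to 13.8 ± 4.28 and 16 ± 2.33 in Ad-HNF4A and to 14.3 ± 1.46 and 15.1 ± 0.997 in Ad-K458R, but they are near-identical copies whose reads may be split between them. GCDH, the glutaryl-CoA dehydrogenase, rose from 31 ± 2.94 to 44.7 ± 4.68 and 43.8 ± 4.38 CPM (adjusted p = 0.022 and 0.027); its calls were lost without Ad-GFP replicate 1 or 2, without Ad-HNF4A replicate 1 or 3 in the first comparison, and without Ad-K458R replicate 2 or 3 in the second (adjusted p up to 0.13).

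Among the 20 peroxisomal genes of this list, ACOX3, the branched-chain oxidase, rose from 19 ± 2.23 to 28.6 ± 0.994 CPM in Ad-K458R (adjusted p = 0.018, and up to 0.079 without Ad-GFP replicate 1 or 2 or Ad-K458R replicate 1 or 3). In Ad-HNF4A it was at 26 ± 3.57 CPM (adjusted p = 0.07), and it was called there with DESeq2 (adjusted p = 0.028), with no low-count filter (0.04) and without Ad-HNF4A replicate 2 (0.024). ACOT4, a peroxisomal thioesterase, rose from 1.63 ± 0.488 to 3.61 ± 0.341 and 3.64 ± 0.896 CPM (adjusted p = 0.033 and 0.028). Both ACOT4 calls were lost with the replicate block (adjusted p = 0.071 and 0.065), with the 6 libraries alone, and without Ad-GFP replicate 1 or 2 or Ad-K458R replicate 2, the first also without Ad-HNF4A replicate 1 or 3 and the second without Ad-K458R replicate 1 (adjusted p up to 0.13).

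Among 16 tested regulators and uptake genes, 2 rose in each treated group. CREB3L3, a liver transcription factor of fasting lipid metabolism, was at 68.9, 58.7 and 65.2 CPM in Ad-GFP, 108, 114 and 139 in Ad-HNF4A and 141, 145 and 133 in Ad-K458R. The groups against control did not overlap, and the log2 fold changes were 0.9 ± 0.1 (adjusted p = 0.00045) and 1.12 ± 0.1 (adjusted p = 7.8e-05). SLC27A4, a fatty acid transport protein with acyl-CoA synthetase activity, rose from 44.6 ± 1.91 to 57.8 ± 5.19 and 62.3 ± 2.78 CPM (adjusted p = 0.028 and 0.0056). The first SLC27A4 call was lost with the replicate block (adjusted p = 0.056), with the 6 libraries alone, and without any 1 Ad-GFP library, Ad-HNF4A replicate 1 or 3, or Ad-K458R replicate 2 (adjusted p up to 0.11). None of the 8 tested ketone genes outside the members was called.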

How the data were processed

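The deposited table gives raw counts and FPKM per human gene, per the file headers, for 9 libraries. Trimmomatic and mm10 are named in the submitters' processing notes; for the aligner, the counter and any separation of mouse reads: not given in the sources used here. Of the gene IDs, 98.5% are in GENCODE 29 (GRCh38) and 94.9% have its positions. Deposited FPKM equalled counts over total and gene length within 0.0001 for 85.04 to 97.64% of values per library, and within 0.001, a tolerance set afterwards, for 100%. Their lengths were 1 to 8.3 times the principal transcript, so levels between genes use CPM per kilobase of the principal transcript, a choice made after those lengths were seen.

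Groups follow titles; the treatment field numbers some replicates upward (such as Ad-K459R) and 1 title spells Ad-GK458R, whose description gives K458R. Counts were filtered with filterByExpr, TMM-scaled and tested with edgeR 4.0.16 (R 4.3.3, 1 term per group, robust). The test was also run on counts simulated from the spread fitted to these data. That run cannot show whether the libraries of a group are independent. Alternatives used DESeq2 1.42.0, limma 3.58.1, other scalings and filters, FPKM with pseudocounts of 1 or 0.1, subsets and a replicate block. Members and lists were chosen with earlier results of these data known. Full values go to called members, the 6 others of smallest p and called pathway genes (at most 5 a list); other genes were named after their values were seen. Some results of the pathway lists are not reported here.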

Additional observations from a re-analysis of the deposited data

How the results depend on the processing

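For single genes and the ACSL5 share, 992 recomputed values kept their direction and their side of the threshold, 57 lost a call, 15 gained one and 17 changed sign; 5 values, all of the ACSL5 share, moved by more than the spread between libraries. The members called higher in Ad-HNF4A were 5 with DESeq2 and with library totals only, adding ACADVL and HADHA, and 2 to 3 with 1 library left out. In Ad-K458R they were 2 (ACSL5 and ACAA1) with the replicate block and 2 to 4 with 1 library left out. Between the treated groups they were 0 to 1 with 1 library left out, the 1 being ACSL5 without Ad-HNF4A replicate 3. No setting called a member lower. The members' median log2 fold change with 1 library left out was 0.15 to 0.21 in Ad-HNF4A, lowest without Ad-HNF4A replicate 3, 0.08 to 0.15 in Ad-K458R, lowest without Ad-GFP replicate 1, and -0.07 to -0.03 between the treated groups; it was 0.15 in Ad-K458R with library totals only and -0.05 between the treated groups with log2(FPKM + 1).

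The values that changed sign were not called in any setting. EHHADH in Ad-K458R was -0.01 without the low-count filter and -0.02 to 0.03 with 1 library left out. Between the treated groups ACOT4 was -0.02 with limma-voom and 0 with log2(FPKM + 0.1). With 1 library left out, the same difference ran from -0.21 to 0.13 for ACOT4, -0.06 to 0.02 for ACAA1, -0.13 to 0.02 for CRAT, -0.09 to 0.34 for ACSM2A, -0.17 to 0.04 for ACSM2B and -0.11 to 0.04 for GCDH. The cause was not tested.

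Replicate numbers did not pair the libraries: deviations of same-numbered libraries correlated at -0.04 to 0.05, and not every library was closest to its own number. The replicate block took the members called from 3 to 2 in Ad-HNF4A and from 4 to 2 in Ad-K458R. It took all genes called from 578 to 423 and from 594 to 477. Other scalings moved the median of all genes to at most 0.028. The ACSL5 share of the 4 synthetases, with alternatives chosen after seeing the data, was 4.09, 20.1 and 24.4% by deposited FPKM and 3.05, 15.7 and 19.2% by counts with no length. One count was worth 0.0442 to 0.0625 CPM, so ACADL rested on few counts.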

Other observations

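Other values of the module were singled out after they were seen. DECR2 and ECI1, both on chromosome 16, had the same highest library in each group: Ad-GFP replicate 3 (39.5 and 25.4 CPM), Ad-HNF4A replicate 1 (54.6 and 34.2) and Ad-K458R replicate 2 (41.4 and 35.6). PPARA, the nuclear receptor of fatty acid oxidation genes, was at 29.1 CPM in Ad-K458R replicate 3 and at 5.27 to 14.5 in the other 8 libraries. PPARGC1A, a coactivator of the same genes, was at 7.11, 10.1 and 8.45 CPM in Ad-GFP, 5.75, 6.38 and 4.69 in Ad-HNF4A and 7.57, 7.75 and 10.5 in Ad-K458R, with all Ad-HNF4A libraries lowest and no call (adjusted p = 0.12 with edgeR). SLC25A20, which carries acylcarnitine across the inner mitochondrial membrane, was at 69.5 ± 14.7, 100 ± 8.17 and 78 ± 10.9 CPM (SD, n = 3) in Ad-GFP, Ad-HNF4A and Ad-K458R and was not called.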
